A study of Arabidopsis thaliana with 16 samples.

Results

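The 53 nuclear photosynthesis genes of Arabidopsis thaliana described here encode light-harvesting, photosystem, electron carrier, Rubisco and Calvin cycle proteins, and carbonic anhydrases. They were listed by function: 14 LHCB and 6 LHCA antenna genes, 9 photosystem II subunits, 10 photosystem I subunits, PETC and the plastocyanins PETE1 and PETE2, 4 Rubisco small subunits with Rubisco activase (RCA), 4 Calvin cycle enzymes (GAPA, GAPB, PRK and SBPASE), and the carbonic anhydrases CA1 and CA2. All 53 were among the 32833 genes of the seedling table and the 32548 genes of the leaf and shoot apical meristem (SAM) table. Of these, 52 passed the filter on low values in each table. The exception, LHCB1.5, was listed at 0 in all 16 libraries.

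RNA was sequenced from 8 groups of 2 libraries each. Seedlings aged 2 weeks were wild type (WT), tcx5-/- tcx6-/- (tcx5/6), ddm1-/- (ddm1) or the tcx5-/- tcx6-/- ddm1-/- triple mutant. Leaf, taken at 1 month, and SAM, for which the labels give no age, came from WT and tcx5/6 plants. Comparisons of SAM with leaf may therefore also compare plant ages. Per the labels, plants grew at 22 °C on MS plates in days of 16 h light and 8 h dark. The DREAM complex, which holds genes of cell division down, includes the CXC-domain proteins TCX5 and TCX6, and DDM1 remodels chromatin so that DNA methylation is maintained. The labels do not give the mutant alleles or the hour of harvest, nor whether the 2 replicates grew in separate cultures. The p-values therefore measure the spread between these libraries, which may be technical. The tissue field reads seedlings for leaf and SAM libraries too, and tissue was taken from the titles.

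In photosynthesis, LHCB proteins form the antenna of photosystem II and LHCA proteins that of photosystem I, and both pass light energy to the reaction centres. Plastocyanin and the cytochrome b6f complex, to which the Rieske protein PETC belongs, carry electrons between the photosystems. Rubisco then fixes carbon dioxide in the Calvin cycle, with RCA keeping its active sites open. These proteins are made in the cytosol from nuclear genes, many of them members of small families that respond to light, the circadian clock and leaf development.

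Values are the authors' depth-adjusted signal, which is not divided by gene length, and a change is a difference of log2(signal + 1) with its standard error (SE), each group having n = 2 libraries, whose values are given in the order of their replicate numbers. Changes were called at a Benjamini-Hochberg adjusted p under 0.05 from limma-trend over all genes tested, and "rose" and "fell" are used of called genes. Total signal was 31.1 to 38.8 M in seedling libraries (M, 1e6 signal units), and from 45.4 to 59.3 M in those of leaf and SAM. The depth sequenced is unknown, since these totals were adjusted.

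The targeted genes were checked against the labels first. In WT seedlings DDM1 read 709 and 648, with 1925 and 2061 in the tcx5/6 libraries, 119 and 145 in those of ddm1, and 569 and 654 in the triple mutant. It was lowest in the libraries labelled ddm1, while in those labelled triple mutant it lay below tcx5/6 but did not differ from WT beyond the test (log2 change of -0.15). TCX5 fell in the libraries labelled tcx5/6 (log2 change of -0.95 in seedlings, -1.24 in leaf and -0.91 in SAM), whereas TCX6 rose in the same libraries (2.29, 1.96 and 2.05). TCX6 thus goes against a loss of transcript. Gene-level values do not show which part of a gene was read, so every direction below is that of libraries labelled with a genotype.

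The seedling libraries also fell into 2 kinds. On the lowest steps of the values, the number of genes on the second step divided by that on the first ranged from 0.345 to 0.461 without the ddm1 label (WT and tcx5/6) and from 2.28 to 3.33 with it (ddm1 and triple mutant). Differences between ddm1 or triple mutant seedlings and WT or tcx5/6 seedlings therefore also compare library kinds, and the ddm1 label and library kind cannot be told apart there. The tcx5/6 with WT and triple mutant with ddm1 comparisons of seedlings are each within 1 kind, but not the same kind. In leaf and SAM libraries the ratio was 2.99 to 4.0, nearer to that of ddm1 and triple mutant seedlings. The tcx5/6 with WT comparisons of seedlings and those of leaf and SAM therefore also differ in this ratio.

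The 53 genes took 16.2% and 16.8% of the total signal in the 2 WT seedling libraries, and their order was led by a major antenna gene and a Rubisco gene. For levels per kilobase, signal was divided by the length of the longest annotated mRNA of each gene. That length differs between paralogs (1894 bases for RBCS1B, 935 for RBCS2B) and affects the order. Per kilobase of mRNA, CAB1 (LHCB1.3, AT1G29930, chr1:10477885-10479114), which encodes the main chlorophyll-binding protein of photosystem II, had the highest mean level in WT seedlings at 390930.0. RBCS1A (AT1G67090, chr1:25048158-25049667), the most abundant Rubisco small subunit gene, followed at 336898 per kilobase. The libraries of these genes did not overlap each other or those of RCA, the next gene, at 173554 per kilobase. From RCA down, the order was less resolved: of the 52 neighbouring pairs in the order of per-kilobase levels, 29 overlapped between libraries in WT seedlings, 12 in WT leaf and 16 in WT SAM.

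The highest member of each of the other groups was taken per kilobase over WT libraries of all tissues, and their WT seedling means were LHCA4 at 172105, PSBR at 160902, PSAL at 80883, PETE2 at 70970.4, GAPA at 49073 and CA1 at 53719. In WT seedlings alone, the photosystem I subunit gene PSAO stood above PSAL, at 89758 per kilobase and without overlap. LHCA4 is a photosystem I antenna protein, PSBR and PSAL are small subunits of photosystems II and I, PETE2 is the major plastocyanin, GAPA is a subunit of the chloroplast glyceraldehyde-3-phosphate dehydrogenase, and CA1 is a chloroplast carbonic anhydrase. The isoforms known as rare were at the foot of the order in WT seedlings: LHCA5 at 4879.6, LHCA6 at 3752 and LHCB4.3 at 791 per kilobase. In WT leaf the first place went to PSBR at 285854 per kilobase, ahead of RBCS1A at 102157 and CAB1 at 97236. In WT SAM it went to RBCS1A at 336416, ahead of CAB1 at 288656.

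LHCB1.5 (AT2G34420, chr2:14522524-14523568), a neighbour of LHCB1.4, lies over all of its length (100%) inside a gene annotated on the opposite strand, AT2G08665, which was also listed at 0 in all libraries. In all, 19 members overlap another annotated gene, 16 of them one on the opposite strand, and whether counting used strand was not stated. Shared sequence adds a further limit, as 9 members share at least 20% of their 50-base stretches of mRNA with another gene. For LHCB2.3 (38.6%), PSAG (58.8%) and PSAH1 (49.2%) that gene is the one overlapping on the opposite strand. For the others it is mostly a paralog: CAB1 and CAB2 (22% and 20.5%), LHCB1.5 (22.3%), LHCB2.1 and LHCB2.2 (22.7% and 28.2%), and RBCS2B (21.4%). Their values are uncertain to the extent that reads were split or dropped. So are those of LHCB1.4, which shares 13.7% of its stretches mostly with LHCB1.5. The same limit holds for RBCS3B (18.3%), RBCS1B (14.0%) and CAB3 (10.7%), which share stretches mostly with paralogs.

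The share of the genes moved between groups. It was 13.7% and 14.1% in tcx5/6 seedlings, 17.9% and 17.0% in ddm1 and 9.76% and 8.30% in the triple mutant. It was 3.5% and 3.46% in WT leaf, 3.88% and 3.70% in tcx5/6 leaf, 7.05% and 7.15% in WT SAM and 4.62% and 4.67% in tcx5/6 SAM. In ddm1 seedlings the make-up differed more than the sum: LHCB genes held 8.68% and 7.90% of the total signal against 5.66% and 5.87% in WT, while RBCS genes and RCA together held 1.78% and 1.86% against 3.23% and 3.24%. Fewer cells of a type and less RNA per cell cannot be told apart in these whole-tissue libraries.

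**Figure D1:**
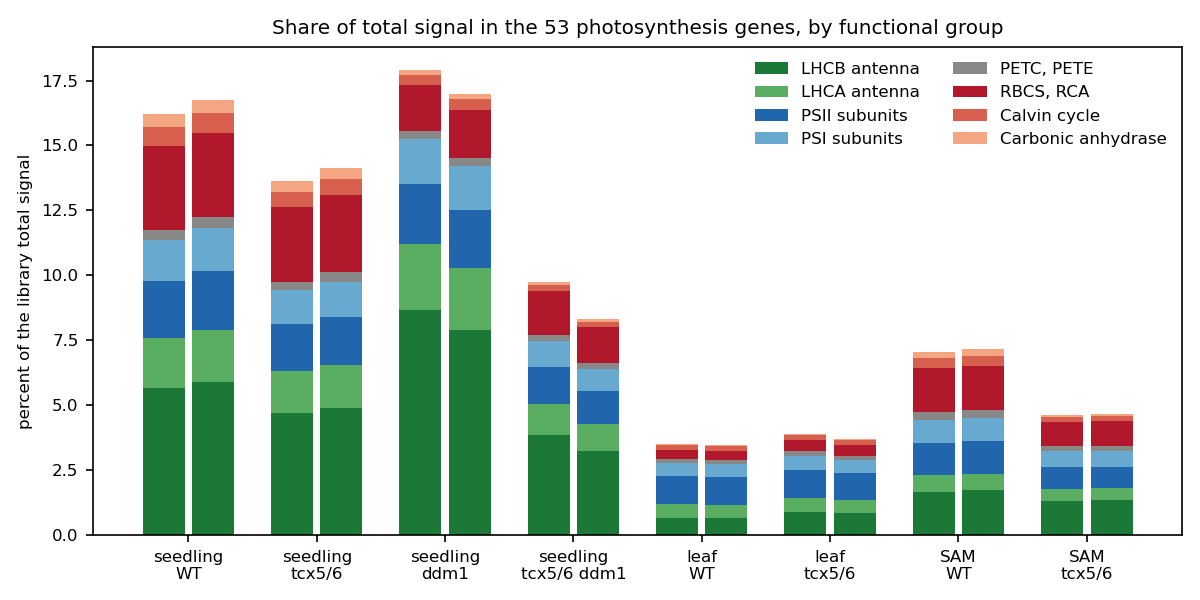
Share of each library's total signal (percent, y axis) held by the 53 genes, stacked by functional group, with 1 bar per library and 2 libraries in each of the 8 groups. The stacks are highest in WT and ddm1 seedlings (16.2% to 17.9%) and lowest in leaf (3.46% to 3.88%), and the red Rubisco band is narrower in ddm1 than in WT seedlings while the green LHCB band is wider.

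In seedlings labelled tcx5/6, photosynthesis genes were slightly lower than in WT. Of the 52 tested, 14 fell, none rose and 38 did not pass the test, with a median log2 change of -0.37 against 0 for all genes, and 11.6% of all genes were called (7.26% higher, 4.35% lower). The members that fell were 2 LHCB genes, 2 LHCA genes, 5 photosystem I subunits, 2 photosystem II subunits, PETC, and PRK and SBPASE of the Calvin cycle. No Rubisco or carbonic anhydrase gene passed after adjustment. At an unadjusted p under 0.05 in limma, 41 members were lower and 0 higher, and all 52 fitted changes were below 0.

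LHCB2.3, a photosystem II antenna gene, read 47389 and 50076 in WT and 30287 and 31618 in tcx5/6 seedlings, a log2 change of -0.65 ± 0.17 SE, adjusted p = 0.044. The rare isoform LHCA6, known from a complex of photosystem I with NDH, read 4052 and 4669 in WT and 2708 and 2916 in tcx5/6, a change of -0.63 ± 0.10 SE, adjusted p = 0.0064. PSAH2, a photosystem I subunit at the docking site of the mobile antenna, read 36473 and 35329.6 in WT and 25505 and 25315 in tcx5/6 (-0.50 ± 0.08 SE, adjusted p = 0.0068). In each of the 3 genes both tcx5/6 libraries lay below both WT libraries. RBCS2B was at the other end, with 88976 and 91721 in WT and 87489.7 and 92264 in tcx5/6, and its groups overlapped. The count of 14 depends on the fit: it was 47 with only WT and tcx5/6 libraries in the model and 5 after rescaling to a common total, and it was 2 without WT replicate 1, 1 without WT replicate 2, 1 without tcx5/6 replicate 1 and 2 without tcx5/6 replicate 2.

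Marker sums in these seedlings were lower in tcx5/6 than in WT for root (34099 to 36014 against 39504 to 43446) and epidermis (20117 to 21218 against 22623 to 22878). No single marker of root, epidermis or meristem passed in limma after adjustment, and at an unadjusted p under 0.05, 2 root markers were higher, 2 epidermis markers lower and 0 meristem markers either way. Of the 8 senescence markers, with 11.6% of all genes called, SAG13 rose (0.90) and 2 fell. Their part in the lower signal of the members was not tested.

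In ddm1 seedlings every Calvin cycle and carbonic anhydrase gene and 4 of the 5 genes of the Rubisco group were lower than in WT, whereas antenna and photosystem genes went both ways, LHCB genes more often up than down. Of the 52 tested, 15 rose, 18 fell and 19 did not pass, while 49.6% of all genes were called (26.3% higher, 23.3% lower). The members' log2 changes ran from -1.66 (RBCS2B) to 2.68 (LHCB1.4), with a median of 0.04. After rescaling to a common total, which lowered the median change of all genes by 0.19, 11 rose and 20 fell.

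Among the antenna genes, 7 of 13 tested LHCB members rose and 3 fell, and of the LHCA genes LHCA1 and LHCA2 rose while LHCA5 and LHCA6 fell. LHCB1.4 read 47028 and 46311 in WT and 316712 and 281777 in ddm1 seedlings, a log2 change of 2.68 ± 0.13 SE, adjusted p = 1.6e-06. CAB1 read 469527 and 492160.4 in WT and 1167600.2 and 1102155 in ddm1, a log2 change of 1.24 ± 0.24 SE, adjusted p = 0.0029. LHCB4.2, which encodes a minor antenna protein (CP29) between core and outer antenna, read 81651 and 87416 in WT and 159889 and 143993 in ddm1 (0.84 ± 0.12 SE, adjusted p = 5.1e-04). Both ddm1 libraries were above both WT libraries in the 3 genes. LHCB1.4 went from 5.08% and 4.75% of the summed LHCB1 signal in the WT libraries to 15.7% and 15.0% in the ddm1 libraries.

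Of the photosystem genes, PSBQ2 (0.71) and PSBR (0.54) rose and PSBO2 (-0.29) and PSBY (-0.52) fell in photosystem II. PSBQ and PSBO proteins belong to the oxygen-evolving complex. In photosystem I, PSAO (0.64), PSAL (0.56) and PSAD2 (0.34) rose, PSAH2 fell (-0.26), and the other 6 did not pass.

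Of the Rubisco, RCA, Calvin cycle and carbonic anhydrase genes, none rose at an adjusted or unadjusted p under 0.05 in limma. RBCS2B read 88976 and 91721 in WT and 29337 and 27782 in ddm1, a log2 change of -1.66 ± 0.14 SE, adjusted p = 3.3e-05. CA1 read 118041 and 123799.9 in WT and 38856 and 41456 in ddm1 (-1.59 ± 0.15 SE, adjusted p = 4.6e-05), and RCA read 339253 and 350797 in WT and 129877 and 141809 in ddm1 (-1.35 ± 0.18 SE, adjusted p = 3.8e-04). All ddm1 libraries of these 3 genes lay under all WT libraries. The 4 Calvin cycle enzymes fell by 0.58 (GAPA) to 1.02 (GAPB) on the log2 scale, and CA2 fell by 0.70.

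Paralogs of 1 function often had different calls, although the difference between paralogs was not itself tested. The ddm1 label and library kind cannot be told apart in these calls, and some of these paralogs share stretches of mRNA. Of the Rubisco small subunit genes, RBCS1B (-0.90), RBCS2B and RBCS3B (-0.55), which lie side by side on chromosome 5, fell, and RBCS1A on chromosome 1 did not pass (-0.16). RBCS1A made up 57.0% and 57.7% of the summed RBCS signal in WT and 67.7% and 68.0% in ddm1. In the LHCB1 family, CAB1, CAB3 (0.64) and LHCB1.4 rose and CAB2 did not pass (-0.16). LHCB2.1 (-0.41) and LHCB2.3 (-0.83) fell, and LHCB2.2 did not pass (0.01). LHCB4.1 (0.54) and LHCB4.2 rose where the rare LHCB4.3 fell (-0.74, from 1000.3 and 1089.7 to 617 and 634). PETE1, the minor plastocyanin gene, rose (0.62) and PETE2 did not pass (-0.25). PSAD1 (0.04), PSAH1 (0.03), PSBO1 (0.25) and PSBQ1 (0.07) likewise did not pass beside called partners.

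**Figure D2:**
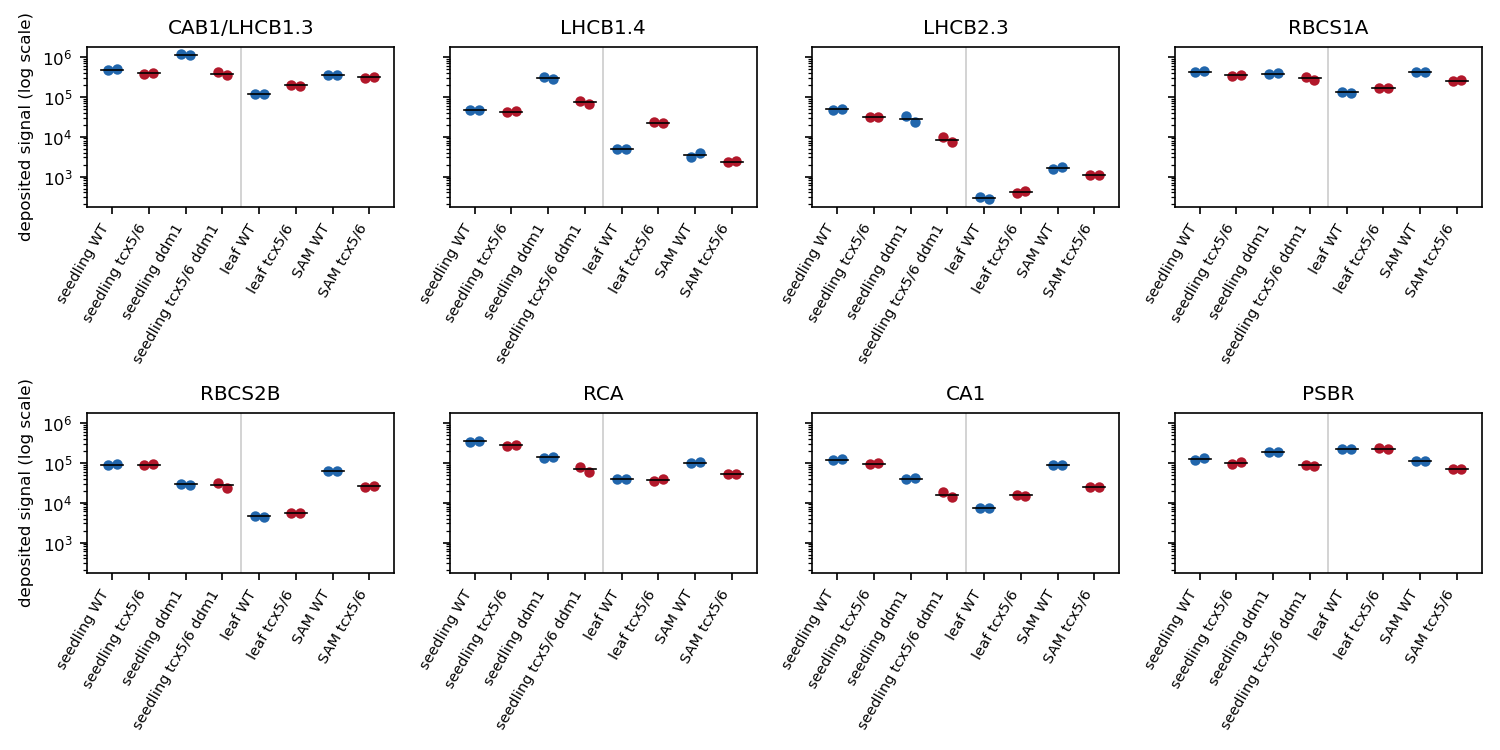
Deposited signal on a log axis for 8 members in the 16 libraries. Each dot is 1 library, blue without and red with the tcx5/6 label, the bar is the mean of 2 libraries, and the grey line separates the seedling table from the leaf and SAM table, which were normalised separately. LHCB1.4 stands highest in ddm1 seedlings, and RBCS2B, RCA and CA1 are lower in both ddm1 groups than in WT seedlings.

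The windows of 250 bases before the annotated gene start (RefSeq, TAIR10.1) are shown for 2 members that rose and 2 that fell in ddm1, as examples of how the letters known from light and clock regulated promoters are placed. Capitals mark matches, on either strand, to the I-box GATAAG, the G-box CACGTG, the CCA1-binding site AAAAATCT, the evening element AAAATATCT, the cell cycle homology region TTTGAA, and the E2F sites TTTCCCGC and TTTGGCGC. The cell cycle homology region is the sequence that DREAM complexes bind through CXC-domain proteins in animals. The windows are at chr2:14524357-14524606, plus strand (LHCB1.4), chr3:2717307-2717556, plus strand (LHCB4.2), chr5:15382072-15382321, minus strand (RBCS2B) and chr2:16573693-16573942, minus strand (RCA), each written 5′ to 3′ along the gene.
LHCB1.4: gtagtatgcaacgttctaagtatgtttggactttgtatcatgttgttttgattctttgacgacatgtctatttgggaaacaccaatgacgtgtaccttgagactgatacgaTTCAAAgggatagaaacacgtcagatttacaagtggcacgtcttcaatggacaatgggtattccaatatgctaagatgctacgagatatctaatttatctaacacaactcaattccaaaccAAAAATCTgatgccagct
LHCB4.2: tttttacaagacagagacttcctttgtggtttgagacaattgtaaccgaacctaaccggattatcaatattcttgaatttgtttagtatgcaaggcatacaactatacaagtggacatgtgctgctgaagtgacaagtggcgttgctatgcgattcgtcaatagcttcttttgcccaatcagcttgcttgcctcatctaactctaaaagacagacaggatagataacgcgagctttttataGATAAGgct
RBCS2B: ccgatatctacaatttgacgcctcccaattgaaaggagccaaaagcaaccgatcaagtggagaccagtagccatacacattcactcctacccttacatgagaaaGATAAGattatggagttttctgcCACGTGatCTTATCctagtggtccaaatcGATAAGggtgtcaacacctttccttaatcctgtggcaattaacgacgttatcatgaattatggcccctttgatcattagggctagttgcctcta
RCA: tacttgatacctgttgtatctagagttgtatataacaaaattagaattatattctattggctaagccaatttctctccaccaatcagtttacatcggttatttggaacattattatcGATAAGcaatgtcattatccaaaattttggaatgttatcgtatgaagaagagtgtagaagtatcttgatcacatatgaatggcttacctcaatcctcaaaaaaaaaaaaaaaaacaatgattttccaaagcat
RBCS2B held 3 I-boxes and 1 G-box, RCA and LHCB4.2 held 1 I-box each, and LHCB1.4 held 1 CCA1-binding site and 1 cell cycle homology region. The windows of CAB1 and CA1 held none of these letters.

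Over the 53 windows, an I-box was found in 13 (24.5%), against 12.7% of the 31328 windows of loci with an annotated mRNA, and a G-box in 9 (17%) against 5.93%. The CCA1-binding site was in 5 (9.43%) against 6.4%. The evening element was in 1 (1.89%) against 2.22%. The cell cycle homology region was in 17 (32.1%) against 38.1%, and no member had an E2F site, which 1.68% of all windows held. By direction in ddm1, an I-box was in 3 of 15 members that rose (20%) and 4 of 18 that fell (22.2%). For the G-box these counts were 2 (13.3%) and 4 (22.2%), for the CCA1-binding site 2 (13.3%) and 0. The cell cycle homology region was in 3 (20%) and 3 (16.7%), and these differences were not tested. None of these motifs is contained in another, and a match is one of letters only.

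Other RNAs moved beside the photosynthesis genes in ddm1 seedlings. The morning clock genes CCA1 and LHY fell (-3.01 and -4.71) and the evening clock gene TOC1 rose (2.69). The pathogen response genes PR1, PR2 and PR5 rose by 6.47, 4.0 and 3.07, and the senescence gene SAG13 by 4.69. Senescence markers summed to 19534 to 22651 in ddm1 and 11162 to 11870.4 in WT (3 of 8 rose, 1 fell), epidermis markers to 14924 to 14938 and 22623 to 22878 (4 of 4 fell), and root markers to 28679.8 to 31380.4 and 39504 to 43446 (2 of 10 rose, 2 fell). Meristem markers summed to 4169 to 4226 in ddm1 and 3951 to 4011 in WT, and of the 11 tested CLV1 rose (0.69) and 4 fell, KNAT1 the most (-2.54). Seed storage markers summed to 1676 in ddm1 replicate 1 and 27.3 in replicate 2. Beside these marker counts, 49.6% of all genes were called in ddm1 (26.3% higher, 23.3% lower). The part of clock phase, defence state and cell make-up in the changes of the members was not tested.

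In the triple mutant nearly every photosynthesis gene was lower than in WT. Of the 52 tested, 49 fell, 1 rose (LHCB1.4) and 2 did not pass (CAB1 and PETE1), with a median log2 change of -1.02, and 55.8% of all genes were called (29.5% higher, 26.4% lower). In 27 members the fall was at least 2-fold. Carbonic anhydrase genes had the lowest median (-2.36), followed by the Calvin cycle (-1.75) and Rubisco with RCA (-1.36), and photosystem II subunits the smallest among groups with more than 3 genes (-0.86).

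CA1 read 18458 and 13491 in the triple mutant, a log2 change of -2.94 ± 0.15 SE, adjusted p = 1.6e-06 from WT. LHCB2.3 read 9525 and 7404 in the triple mutant (-2.54 ± 0.17 SE, adjusted p = 6.6e-06 from WT), and RCA read 79531 and 59310.0 (-2.33 ± 0.18 SE, adjusted p = 1.3e-05). All triple mutant libraries of these genes were under the WT libraries named above. LHCB1.4, the only member that rose, read 78643 and 65913, between the WT and ddm1 levels and without overlap with either (0.63 ± 0.13 SE, adjusted p = 0.0032 from WT).

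The triple mutant and ddm1 libraries were of the same kind, and the comparison between them asks what the tcx5/6 label adds to the ddm1 label, although DDM1 signal in the triple mutant overlapped that of WT and was higher than in ddm1 (log2 change of 2.21). Relative to ddm1, 48 members fell, none rose and 4 did not pass, with a median log2 change of -1.06, and 39.3% of all genes were called (17.7% higher, 21.6% lower). At an unadjusted p under 0.05 in limma, 0 were higher, as was so in the interaction terms and in tcx5/6 SAM described below. Antenna genes fell with the lowest medians, -1.47 for LHCB and -1.34 for LHCA. LHCB1.4 had a log2 change of -2.05 ± 0.13 SE, adjusted p = 2.4e-05, LHCB2.3 of -1.70 ± 0.17 SE, adjusted p = 1.8e-04 and LHCB4.2 of -1.69 ± 0.12 SE, adjusted p = 3.7e-05, the last reading 49856 and 44536 in the triple mutant. The 4 that did not pass were LHCB4.3 (-0.32), RBCS1A (-0.39), RBCS1B (0.16) and RBCS2B (-0.08). RBCS2B read 31541 and 23109.5 in the triple mutant, on both sides of the ddm1 libraries, while RBCS3B fell (-0.82). After rescaling to a common total, which raised the median change of all genes by 0.25, 47 fell and 1 rose.

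Against tcx5/6 seedlings, which are of the other library kind, 39 members fell in the triple mutant, LHCB1.4 rose (0.77) and 12 did not pass, and 51.7% of all genes were called (25.7% higher, 26% lower). CA1 (-2.60), RCA (-2.0) and LHCB2.3 (-1.88) had the lowest changes. RBCS2B was among those that fell (-1.73), as it was in ddm1 against WT.

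The test of whether the tcx5/6 difference depended on the ddm1 label subtracts the tcx5/6 minus WT change from the triple mutant minus ddm1 change. These changes come from different library kinds, so the ddm1 label and library kind cannot be told apart in it. It was below 0 and called in 37 of the 52 members, above 0 and called in none, and not called in 15, with a median of -0.67 and 14.5% of all genes called (5% higher, 9.51% lower). By group, it was called in 11 of 13 LHCB, 5 of 6 LHCA, 9 of 10 photosystem I and 5 of 9 photosystem II genes, and in no gene of the Rubisco group. LHCB1.4 had the lowest value (-1.91 ± 0.18 SE, adjusted p = 8.1e-04), followed by PSAN, a photosystem I subunit that helps plastocyanin dock (-1.31 ± 0.18 SE, adjusted p = 0.0033). The PSAN signal was 57053 and 62615 for WT libraries, 46949 and 49402 for tcx5/6, 61234 and 61720.0 for ddm1 and 22601 and 17719 for the triple mutant, so that the triple mutant libraries were lowest and did not overlap the other 3 groups. The count of 37 was 8 without WT replicate 1, 8 without WT replicate 2, 11 without tcx5/6 replicate 1, 8 without tcx5/6 replicate 2, 24 without ddm1 replicate 1 and 18 without ddm1 replicate 2.

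In the triple mutant as in ddm1, the clock and defence genes stood away from WT: CCA1 changed by -4.40, TOC1 by 2.31 and PR1 by 7.84 on the log2 scale. Against ddm1, PR1 rose by 1.37, PR5 by 2.1 and CCA1 fell (-1.39). Senescence markers summed to 24395 to 28427 (2 of 8 higher and 2 lower than WT), epidermis markers to 10565 to 11605 (4 of 4 lower) and root markers to 18259.9 to 24942 (1 of 10 higher, 5 lower). Meristem markers summed to 2236 to 2307, below WT and ddm1, and 6 of the 11 tested were lower than WT, among them ANT (-2.04) and CLV1 (-0.39). Among all genes, 29.5% were called higher and 26.4% lower than WT. The part of these clock, defence and marker genes' changes in the lower photosynthesis signal was not tested.

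**Figure D3:**
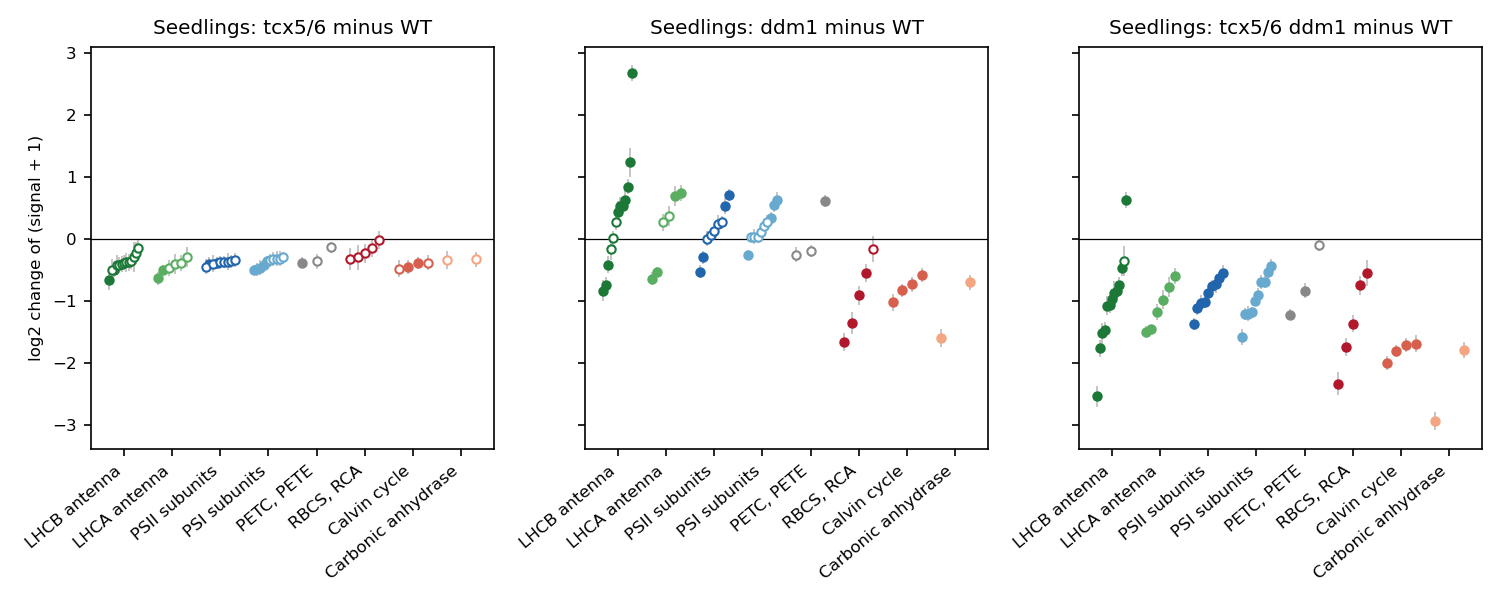
Log2 change of (signal + 1) from WT for the 52 tested members in tcx5/6, ddm1 and triple mutant seedlings, by functional group. Each point is 1 gene with its standard error, filled where called and open where not, and the 3 panels share the WT libraries. The tcx5/6 points lie between -0.65 and 0. The ddm1 points of antenna genes lie mostly above 0 and those of Rubisco, RCA, Calvin cycle and carbonic anhydrase genes below. The triple mutant points lie below 0 except for LHCB1.4.

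In leaf labelled tcx5/6, photosynthesis genes were on balance slightly higher than in WT leaf, and every tested LHCB member rose. Of the 52 tested, 30 rose, 3 fell and 19 did not pass, with a median log2 change of 0.16, and 42.6% of all genes were called (21.3% higher, 21.4% lower). After rescaling to a common total, 23 rose and 7 fell. All 13 tested LHCB members rose, by 0.11 (LHCB5) to 2.21 (LHCB1.4), as did 3 of 5 genes of the Rubisco group, 5 of 10 photosystem I genes, 3 of 9 photosystem II genes and both carbonic anhydrases. LHCB7, which is not a member, did not pass (0.21).

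LHCB1.4 read 4979 and 4768 in WT leaf and 23321 and 21734 in tcx5/6 leaf, a log2 change of 2.21 ± 0.09 SE, adjusted p = 9.4e-06. CAB2 read 2962 and 2809 in WT and 7993 and 7454 in tcx5/6 (1.42 ± 0.06 SE, adjusted p = 6.6e-06), and CA1 read 7442 and 7385 in WT and 15939 and 15060.2 in tcx5/6 (1.06 ± 0.03 SE, adjusted p = 3.4e-06). Both tcx5/6 libraries were above both WT libraries in each. The 3 members that fell were PRK, the enzyme that makes the carbon dioxide acceptor of Rubisco, PSBQ2 and LHCA5. PRK read 17345 and 17347 in WT leaf and 12985 and 14467 in tcx5/6 leaf (-0.34 ± 0.05 SE, adjusted p = 0.0016), without overlap. PSBQ2 read 65021 and 65626 in WT and 54195 and 51215 in tcx5/6 (-0.31 ± 0.03 SE, adjusted p = 4.1e-04), and LHCA5 read 5005 and 5424 in WT and 4498 and 4323 in tcx5/6 (-0.24 ± 0.05 SE, adjusted p = 0.0067). RCA (-0.09) and GAPB (0.04) did not pass, nor did PSBO1 (0.10).

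Paralogs again differed in their calls in leaf, untested as differences: PSBQ1 rose (0.39) where PSBQ2 fell, GAPA rose (0.31) where GAPB did not pass, PSAH2 rose (0.15) where PSAH1 did not pass (0.15), and RBCS1B did not pass (0.14) beside 3 called RBCS genes. PR1, PR2 and PR5 rose in tcx5/6 leaf by 1.74, 2.26 and 3.51. Senescence markers summed to 102858 to 103182 in tcx5/6 leaf and 88947 to 89475 in WT leaf, but went both ways singly. Of the 8, 2 were higher, SAG13 (1.28) and SAG29 (1.02), and 3 lower, PAO (-0.57), NYC1 (-0.58) and DIN1 (-0.58). Meristem markers summed to 1864 to 2089 against 3146 to 3459.8, nearly all of it CLV1 in WT leaf. CLV1 (-0.74) and ANT (-2.04) fell. ANT was near the floor in leaf: its signal + 1 was 807-fold higher in WT SAM than in WT leaf. Root markers SHR (0.50) and PYK10 (-3.56) rose and fell, respectively. Beside these counts, 42.6% of all genes were called in leaf (21.3% higher, 21.4% lower). The part of these defence and marker genes in the changes of the members was not tested.

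In SAM labelled tcx5/6, almost all photosynthesis genes were lower than in WT SAM. Of the 52 tested, 51 fell, none rose and only PETE1 did not pass (-0.08), with a median log2 change of -0.63, and 30.1% of all genes were called (15.6% higher, 14.5% lower). The count was 51 under each other scaling, filter and pseudocount, and 50 or 51 without any 1 library. Carbonic anhydrases had the lowest median (-1.84), then Rubisco with RCA (-1.13) and the Calvin cycle (-0.91), and LHCB genes fell least among the larger groups (-0.51).

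CA1 read 90385 and 90445 in WT SAM and 25206 and 25243 in tcx5/6 SAM, a log2 change of -1.84 ± 0.03 SE, adjusted p = 8.7e-07. CA2 read 21498 and 22117 in WT and 6062 and 6095 in tcx5/6 (-1.84 ± 0.04 SE, adjusted p = 1.4e-06), and RBCS1B read 29897 and 29351 in WT and 11696 and 11465 in tcx5/6 (-1.35 ± 0.05 SE, adjusted p = 1.2e-05). All tcx5/6 libraries of these genes were under the WT libraries. RBCS1A read 427344 and 425807 in WT and 247922 and 259273 in tcx5/6 (-0.75 ± 0.03 SE, adjusted p = 1.9e-05), and its share of the RBCS signal was 61.6% and 60.9% in WT and 67.7% and 68.3% in tcx5/6 SAM. CAB1 had the smallest fall among LHCB1 genes (-0.22), and LHCB1.4, which rose in tcx5/6 leaf, fell in tcx5/6 SAM (-0.56).

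Meristem markers summed to 11219.7 to 11587 in tcx5/6 SAM and 11389 to 11405 in WT SAM, with 1 of 12 higher (CLV3, 1.87) and 1 lower (WUS, -1.65). Root marker NRT2.1 rose (1.53), and PYK10 (-2.08) and COBL9 (-2.53) fell. STM, KNAT1 and ANT were present in all SAM libraries, while CLV3, a marker of the central stem cells, was at 0 in WT SAM. The call of CLV3 is thus a 3.66-fold change of signal + 1 from 0, near the floor of the values. Epidermis markers summed to 57263 to 57637 against 50829 to 51141 (2 of 4 higher), and senescence markers to 8540.0 to 8706 against 11235 to 11887 (2 of 8 higher, 3 lower). PR2 rose by 2.39 and PR5 by 1.68 in tcx5/6 SAM, PR1 did not pass (0.64), and SAG13 rose by 2.53. Beside these counts, 30.1% of all genes were called in SAM (15.6% higher, 14.5% lower). The part of these markers' changes in the lower signal of the members was not tested.

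Between WT tissues, most members were higher in SAM than in leaf. Of the 52 tested, 42 were higher and called, 7 lower and 3 not called, with a median log2 change of 0.96 against 0.21 for all genes, and 78.8% of all genes were called (43.2% higher, 35.6% lower). After rescaling to a common total, which raised the median change of all genes by 0.26, 47 were higher and 1 lower, and 4 called members turned from lower to higher. Rubisco genes, RCA, the Calvin cycle, the electron carriers and the carbonic anhydrases were higher in SAM in every member, and LHCA genes were split, with 2 higher and 3 lower.

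RBCS2B read 4751 and 4404 in WT leaf and 61048 and 60876 in WT SAM, a log2 change of 3.74 ± 0.04 SE, adjusted p = 1.6e-09. CA1 had a log2 change of 3.61 ± 0.03 SE, adjusted p = 1.1e-09 from the values given above, and LHCB2.2 read 2195 and 2047 in leaf and 14426 and 15471 in SAM (2.82 ± 0.05 SE, adjusted p = 9.9e-09). At the other end, PSBR read 226638 and 221581 in leaf and 109009 and 114159 in SAM (-1.01 ± 0.05 SE, adjusted p = 6.1e-07), the only member at least 2-fold lower in SAM. LHCB1.4 (-0.48) and LHCA3 (-0.33) were the next lowest, and both calls were lost after rescaling to a common total (adjusted p = 0.062 and 0.17). LHCA3 read 83129 and 79032 in leaf and 64814 and 64569.9 in SAM.

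The leaf libraries carried senescence markers. These summed to 88947 to 89475 in WT leaf and 11235 to 11887 in WT SAM, with 7 of 8 lower in SAM. The senescence marker SAG13 read 23664 and 22910.1 in leaf and 55.9 and 42.0 in SAM, and SAG12, a late senescence protease gene, read 191 and 223 in leaf and was listed at 0 in SAM. Meristem markers summed to 3146 to 3459.8 in WT leaf, nearly all of it CLV1, with STM, WUS and LFY at 0, and 10 of 12 were higher in WT SAM. Epidermis markers summed to 6213 to 6232 in WT leaf and 50829 to 51141 in WT SAM, with 4 of 4 higher in SAM. PR1, PR2 and PR5 were lower in SAM, with log2 changes of -9.61, -7.05 and -3.30, as was CCA1 (-1.23). Root markers WOX5, SHR and COBL9 were higher in SAM, and NRT2.1 and PYK10 lower. Beside these counts, 78.8% of all genes were called (43.2% higher, 35.6% lower). The part of senescence, defence state and cell make-up in the difference was not tested. Plant age, not given for SAM, may differ as well.

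Within tcx5/6 plants the same tissue comparison gave 24 members higher in SAM, 22 lower and 6 not called, with a median log2 change of 0.03 against 0.20 for all genes, and 78.2% of all genes were called (43.1% higher, 35.2% lower). After rescaling to a common total, which raised the median change of all genes by 0.36, the split was 33 higher and 17 lower. RBCS2B (2.2), LHCB2.2 (1.96) and LHCB2.3 (1.39) were the most SAM-biased members. LHCB1.4 read 23321 and 21734 in tcx5/6 leaf and 2311 and 2425 in tcx5/6 SAM, a log2 change of -3.25 ± 0.09 SE, adjusted p = 6.3e-08, and was followed by PSBR (-1.70) and GAPB (-0.83). GAPB read 42279 and 40115 in tcx5/6 leaf and 23079.5 and 23222 in tcx5/6 SAM, without overlap.

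The test of whether the tcx5/6 difference varied between SAM and leaf was called and below 0 in all 52 tested members, with a median of -0.80 and 30.7% of all genes called (14.8% higher, 15.9% lower). The count was 52 under every other scaling, filter and pseudocount, with the replicate block and without any 1 library. CA1 had the lowest value (-2.90 ± 0.05 SE, adjusted p = 1.1e-06): it rose in tcx5/6 leaf and fell in tcx5/6 SAM. LHCB1.4 was next (-2.77 ± 0.13 SE, adjusted p = 5.0e-05), then CA2 (-2.09), CAB2 (-1.74) and LHCB4.3 (-1.66). By group the median was -2.50 for carbonic anhydrases, -1.44 for Rubisco with RCA, -0.93 for LHCB and -0.58 for LHCA genes. LHCA1 (-0.35), PSBQ2 (-0.33) and PETE1 (-0.34) differed least.

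**Figure D4:**
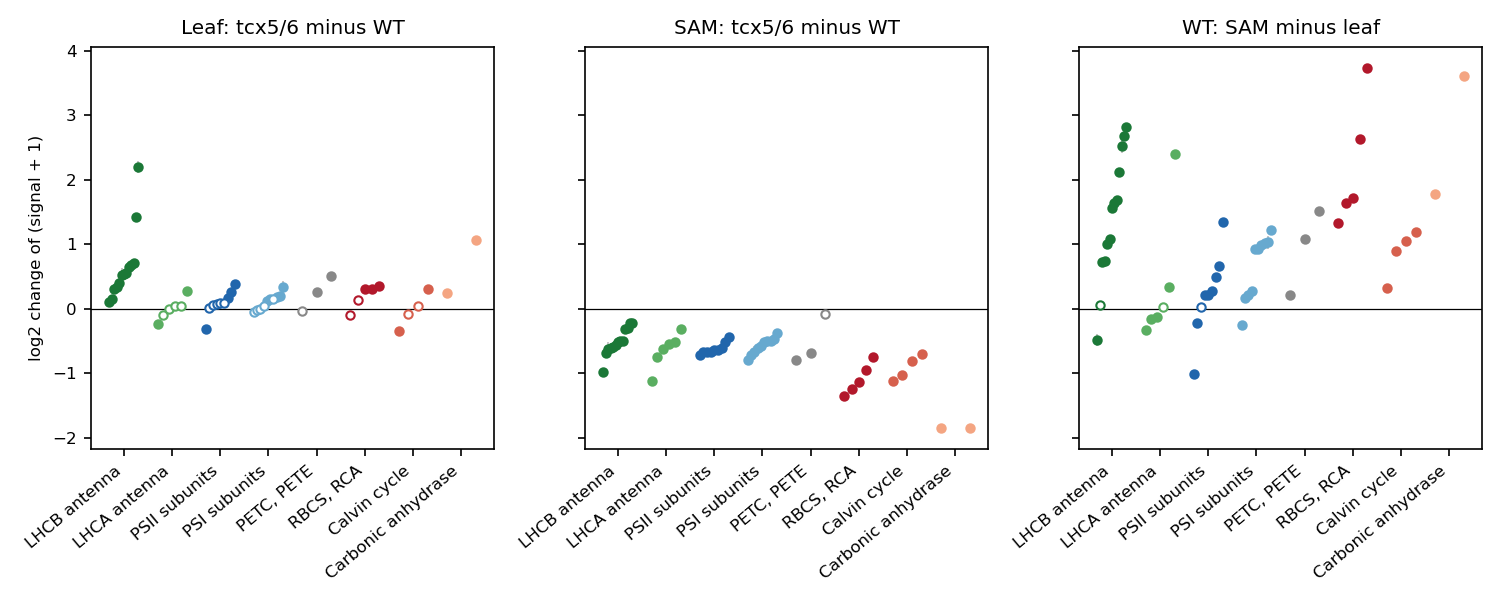
Log2 change of (signal + 1) for the 52 tested members between tcx5/6 and WT in leaf and in SAM, and between WT SAM and WT leaf, by functional group. Each point is 1 gene with its standard error, filled where called and open where not, and the third panel shares its WT libraries with the others. All LHCB points are above 0 in leaf and all but PETE1 are called below 0 in SAM.

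The other nuclear genes of the pathway gave a background for the members. A list of 27 further genes held other photosystem subunits, ferredoxins, ATP synthase subunits, Calvin cycle enzymes and electron flow regulators. Of these, 11 fell in tcx5/6 seedlings and 0 rose, 4 rose and 13 fell in ddm1, and 24 fell in the triple mutant against WT and 24 against ddm1, with 0 rising in both. In leaf 12 rose and 6 fell with tcx5/6, and in SAM 24 fell and 0 rose. At an unadjusted p under 0.05 in limma, 0 were higher in these seedling comparisons without a rise and 1 in SAM. Of all genes, the share called was 11.6% in tcx5/6 seedlings, 49.6% in ddm1, and 55.8% in the triple mutant against WT. It was 39.3% for the triple mutant against ddm1, 42.6% in tcx5/6 leaf and 30.1% in tcx5/6 SAM. The difference between tissues was called below 0 in 24 and above 0 in 1, STN7 (0.44), a kinase that directs the mobile antenna between photosystems. For that difference 30.7% of all genes were called. LHCB7, an LHCB gene kept in this list, fell in ddm1 (-1.21) and triple mutant seedlings (-1.67). It did not pass in tcx5/6 seedlings (-0.18), leaf (0.21) or SAM (0.26).

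In tcx5/6 seedlings the smallest p-values of that list belonged to STN7 (-0.49), PGRL1A (-0.74), a protein of cyclic electron flow, and PSAP (AT2G46820, -0.51), all lower. STN7 read 7306 and 7732 in WT, 5221 and 5512 with tcx5/6, 3984 and 4139.8 with ddm1 and 2407 and 2279 in the triple mutant, and the 4 groups did not overlap. In ddm1 they belonged to FD1, a leaf ferredoxin (-1.46), STN7 (-0.89) and PSAE2 (0.87), a photosystem I subunit that rose. Between the triple mutant and ddm1, RPE (-1.20), a Calvin cycle epimerase, PSAE2 (-1.03) and STN7 (-0.79) came first.

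In tcx5/6 leaf the smallest p-values were those of PSBS (0.43), which is needed to dissipate excess light as heat, FNR2 (-0.37), a ferredoxin-NADP reductase, and PSBTN (0.55). In tcx5/6 SAM they were those of CP12-2 (-1.27), a regulator of the Calvin cycle, ATPC1 (-0.78) of the chloroplast ATP synthase, and FNR2 (-0.81). CP12-2 read 24809 and 24176 in WT leaf, 30969 and 29277 in tcx5/6 leaf, 10845 and 10491 in WT SAM and 4411 and 4439 in tcx5/6 SAM. It was thus higher with tcx5/6 in leaf (0.30) and lower in SAM, and its difference between tissues was -1.57 ± 0.05 SE, adjusted p = 1.7e-05.

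A list of 19 regulators of chloroplast biogenesis held transcription factors, plastid sigma factors, and import and antenna insertion factors. Of these, 8 fell and 0 rose in tcx5/6 seedlings, 11 fell and 2 rose in ddm1, and 17 fell and 0 rose in the triple mutant against WT. At an unadjusted p under 0.05 in limma, 1 was higher in tcx5/6 seedlings and 0 in the triple mutant. In tcx5/6 leaf 12 fell and 2 rose, and in tcx5/6 SAM 10 fell and 2 rose. Beside these counts, all genes were called at 11.6% in tcx5/6 seedlings, 49.6% in ddm1 and 55.8% in the triple mutant. The shares were 42.6% in tcx5/6 leaf and 30.1% in tcx5/6 SAM. In tcx5/6 leaf the sigma factors SIG1 (-0.51), SIG3 (-0.54) and SIG2 (-0.66) fell with the smallest p-values, and in tcx5/6 SAM ALB3 (-0.43) and cpSRP43 (-0.30), which insert antenna proteins into the membrane, fell and HY5 (0.55) rose. The transcription factor GLK2, an activator of antenna genes, fell in tcx5/6 seedlings (-0.51), as did its paralog GLK1 (-0.38). In ddm1 GLK2 also fell, from 7923 and 8206 in WT seedlings to 2191 and 2237 (-1.86 ± 0.09 SE, adjusted p = 1.5e-06). GLK1 read 5943 and 6198 in WT and 6361 and 5484 in ddm1 and did not pass there (-0.04). CGA1, a GATA factor that promotes chloroplast development, fell in ddm1 (-3.36), as did the blue-light induced sigma factor SIG5 (-2.75), which fell to 186 and 169 in the triple mutant from 3907 and 4784 in WT (-4.60). Neither GLK1 (0.04) nor GLK2 (-0.11) passed in tcx5/6 SAM. GUN4, listed at 2.15 to 11.9 as group means, lies over 73% of its length under a gene on the opposite strand and was not called in any comparison. The 11 plastid-encoded loci sought were all listed at 0 in the seedling table.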

How the data were processed

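RNA sequencing libraries from 16 samples in 8 groups of 2 were read from 2 deposited tables, 1 of seedlings and 1 of leaf and SAM. The deposited values are called signal here: gene counts made fractional by the depth adjustment of the authors and not divided by gene length. HISAT2, edgeR and the build TAIR10 are named per the submitters' processing notes. Tool versions, the read counter, the gene annotation and strandedness: not given in the sources used here. The low values are not whole multiples of 1 step, so no reads were recovered and no count test was run. Values under 1e-06 were read as 0.

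Separate limma-trend fits (limma 3.58.1, R 4.3.3) were made for the 2 tables on log2(value + 1), with 1 coefficient per group and all 8 libraries. Genes needed 1 or more signal units in 2 or more libraries, which left 25016 for seedlings and 24429 for the other table, and Benjamini-Hochberg adjustment ran over all of them. The members, lists and rules were chosen with earlier results of these data known. Members given by library were the 3 with the largest called change in each direction of a comparison (2 for interactions), the highest per length in each group, rare isoforms and paralogs with different calls. From other lists, up to 3 called genes led by p-value were taken for the main comparisons, mostly as changes without library values. GLK1, GUN4 and the single clock, defence and tissue markers were named after their values were seen. Alternatives were 2 other scalings, 2 other filters, a pseudocount of 0.1, the replicate number as a block, only the compared groups, and leaving out each library. Depth was not given, so no counting intervals were computed. Promoter windows and gene coordinates come from RefSeq TAIR10.1, whose locus identifiers matched all 53 members. Figures were drawn with Python 3.11.15 and matplotlib 3.10.9.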

Additional observations from a re-analysis of the deposited data

Results flagged for a closer look

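The tcx5/6 difference in seedlings was not the same with and without the ddm1 label in 37 of the 52 tested members, by the interaction term of the fit. The lowest values were those of LHCB1.4 (-1.91 ± 0.18 SE, adjusted p = 8.1e-04) and PSAN (-1.31 ± 0.18 SE, adjusted p = 0.0033). The 2 differences subtracted come from different library kinds, so the ddm1 label and library kind cannot be told apart here, and DDM1 signal in the triple mutant overlapped that of WT.

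The tcx5/6 difference was not the same in SAM and leaf in all 52 tested members, by the interaction term. The lowest values were those of CA1 (-2.90 ± 0.05 SE, adjusted p = 1.1e-06) and LHCB1.4 (-2.77 ± 0.13 SE, adjusted p = 5.0e-05). CA1 was higher in tcx5/6 than in WT in both leaf libraries and lower in both SAM libraries, and the same held for LHCB1.4.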

How the results depend on the processing

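Counts of called members stayed within 1.5 times the reported count in 114 of the alternative fits and moved further in 13, which all concerned 2 comparisons. For tcx5/6 with WT seedlings the count of 14 was 5 after rescaling to a common total, 9 with the replicate block, 47 with only the compared groups, and 1 to 2 without 1 library. For the interaction of tcx5/6 and ddm1 the count of 37 was 8 to 45 without 1 library. The cause was not tested, though a fit without 1 library leaves a group with 1 sample, assumed to vary like the others. Leaving out 1 library gave 22 to 28 for ddm1 with WT (33 in the full fit), 45 to 52 for the triple mutant with WT, 48 to 50 against ddm1, 28 to 47 against tcx5/6, and 27 to 38 for leaf. Among single named genes no change reversed, and 14 calls were lost: LHCB2.3, LHCA6 and PSAH2 in tcx5/6 seedlings under some settings, and LHCB1.4 and LHCA3 between WT tissues. Rescaling to a common total moved the median change of all genes by 0.25 for the triple mutant against ddm1, by 0.17 for the seedling interaction, and by 0.26 and 0.36 for the WT and tcx5/6 tissue comparisons. The replicate numbers did not pair the libraries: differences between same-numbered replicates correlated at -0.022 to 0.127 across genes in seedlings and -0.013 to 0.032 in leaf and SAM, and the block moved no other count by over 1.5 times.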
